A study of Saccharomyces cerevisiae with 7 samples.

Results

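RNA polymerase II (RNAPII) was followed over a set of 57 genes of budding yeast that act in meiosis and in the making of spores, the program that a starved diploid cell enters in place of mitotic growth. The genes were listed by name for their known roles in the program, at a time when earlier results of these data were known, and 56 of them had windows in the tracks, out of 5781 protein-coding open reading frames (ORFs) in all. The remaining gene, SPO22, lies on chromosome IX, which was not analysed here. The 56 genes comprised 27 early genes (entry into meiosis, recombination and chromosome pairing) and 29 middle and late genes (meiotic divisions, the prospore membrane and the spore wall). The timing of 7 of them was uncertain, among them NDT80, placed with the early genes, and MAM1, AMA1 and SPO1, placed with the middle and late genes.

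The isogenic strains were *rtt109Δ*, which lacks the acetyltransferase that marks lysine 56 of newly made histone H3, *rrp6Δ*, missing Rrp6, the exonuclease subunit that the RNA exosome carries in the nucleus, and wild type (WT), all in the W303 background. All 3 were grown asynchronously to log phase in rich medium with glucose, so none of the cultures had been put into sporulation medium. The mutants came from dissected heterozygous diploids, and their mating type is not given in the sources used here. Chromatin was crosslinked with formaldehyde, cut with micrococcal nuclease and precipitated with the 8WG16 antibody to the C-terminal domain of RNAPII. Immunoprecipitation (IP) gave 2 libraries for each strain, with a single common input, but the deposited values are 1 track per genotype in which the libraries are already combined. A track holds IP divided by input for each window of 100 bp, and windows with their centre in an ORF were averaged to give its value (9 to 54 windows per gene of the set). With 1 track per genotype there was no replicate error and no test between genotypes, the read depth was unknown, and a gene was called higher or lower when it differed by more than 1.3-fold. Intervals given after medians are 95% order-statistic intervals over genes, which hold no replicate error.

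Entry into meiosis is set by a cascade of regulators. The transcription activator Ime1 turns on the early genes, which in mitotic cells are held off by the DNA-binding protein Ume6 with the Sin3 and Rpd3 repressors, and the later factor Ndt80 turns on the middle genes, which Sum1, Rfm1 and Hst1 hold off. The early genes make and repair the DNA breaks of recombination, and many of the middle and late genes build the membrane and the wall around each spore. In cells growing in glucose the messenger RNAs of most of these genes are known to be scarce.

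The deleted genes matched their labels. The mean ratio over RTT109 was 0.0178 in *rtt109Δ*, against 1.36 in WT, and over RRP6 it was 0.118 in *rrp6Δ*, against 1.01 in WT. The *rtt109Δ* track had the narrowest range, with an SD over windows of 0.661 in *rtt109Δ*, 0.904 in *rrp6Δ* and 0.897 in WT, and the median window was 1 in each track.

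In WT the meiosis and sporulation genes had ratios in the upper part of the genome, although their known roles lie outside mitotic growth. Their median ratio was 1.18 (interval 1.12 to 1.31), against 0.974 for all ORFs, and the median gene stood at percentile 74.99. Of the 56 genes, 28 lay among the 25% of ORFs with the highest ratios (50% of the genes, against 25% by construction) and 4 among the 25% with the lowest (7.14% of the genes, against 25%). Within the set, 46 of the 56 genes lay above the median ORF.

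The highest ratios in WT were over genes of the prospore membrane and the first division. SPO75, which is needed for spore formation, had a ratio of 1.86 in *rtt109Δ*, 2.19 in *rrp6Δ* and 2.21 in WT. SSP2, an activator of the sporulation kinase Smk1, had 1.599 in *rtt109Δ*, 2.32 in *rrp6Δ* and 2.09 in WT. Both stood at percentile 98.1 or above among ORFs in all 3 tracks. SPO21, a part of the outer plaque of the spindle pole body where the prospore membrane starts, and MAM1, which joins sister kinetochores in the first division, followed in WT with 1.73 and 1.69. The lowest were REC107, a protein of the machinery that makes meiotic DNA breaks, with 0.654 in *rtt109Δ*, 0.656 in *rrp6Δ* and 0.684 in WT, and IME4, an RNA methyltransferase that promotes entry into meiosis, with 0.796 in *rtt109Δ*, 0.708 in *rrp6Δ* and 0.703 in WT. SPS100, a spore wall gene, had 0.775 in WT and SPO73, which shapes the prospore membrane, had 0.788. The WT ratios of the set thus ran from 0.684 to 2.21, or from percentile 13.1 to percentile 99.3 of ORFs.

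**Figure D1:**
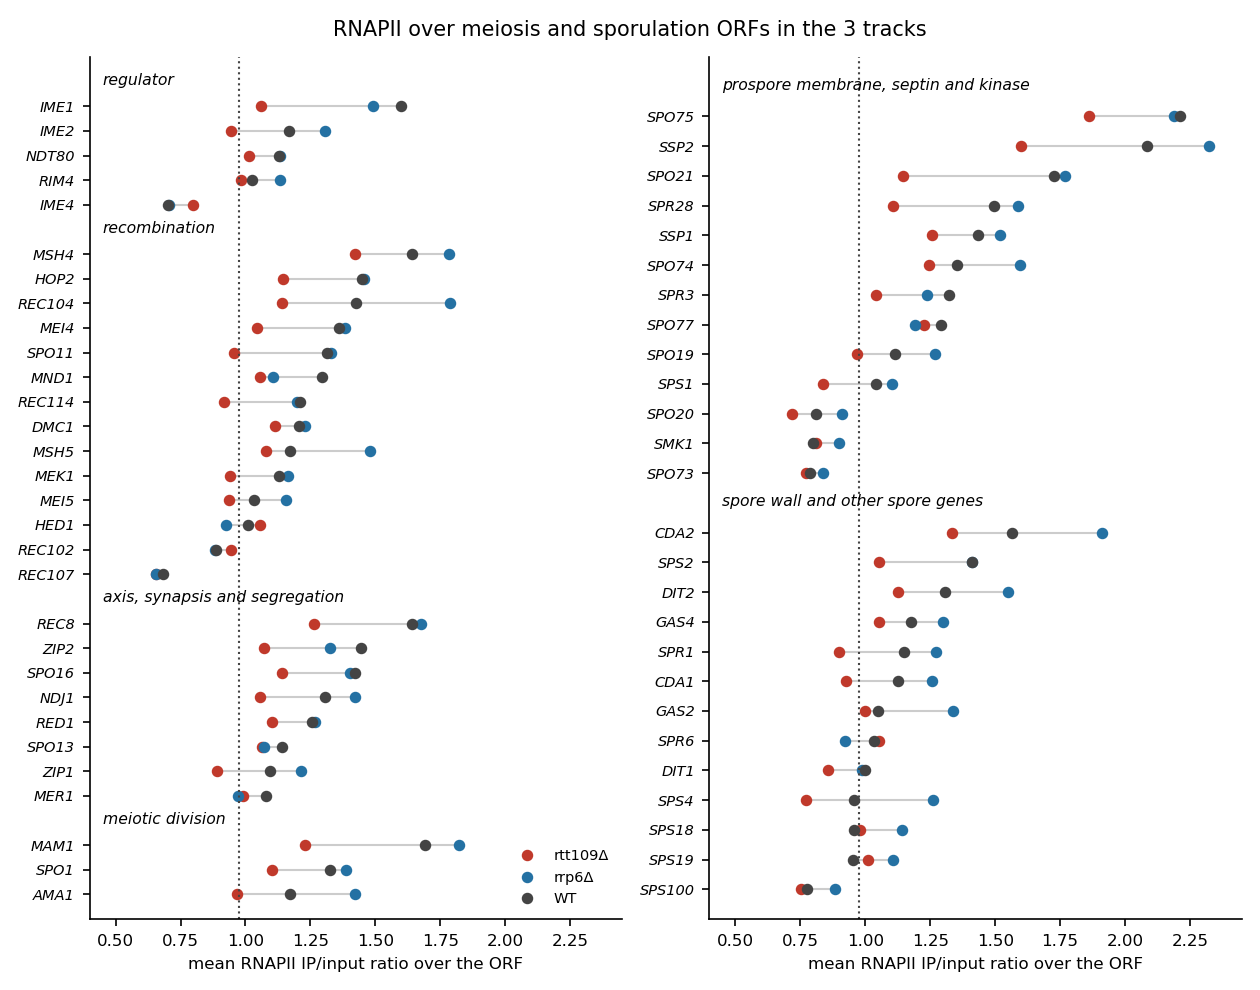
Mean RNAPII IP/input ratio over each of the 56 ORFs (horizontal axis) in *rtt109Δ* (red), *rrp6Δ* (blue) and WT (dark grey), with genes grouped by role and ordered by their WT ratio; the dotted line is the WT median of all ORFs, 0.974. The *rtt109Δ* point is the lowest of the 3 in 47 of the 56 genes, and the *rrp6Δ* point is the highest in 40.

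The scale of the ratio can be judged from genes that are used heavily in glucose. The 127 cytosolic ribosomal protein genes had a WT median of 0.829, and 21 genes of glycolysis and translation elongation had 0.600, with 20 of the 21 among the lowest 25% of ORFs. These lists were picked with their values known. Between these lists and the meiosis genes, the order of the ratios was thus not the order of their known messenger RNA levels, and why was not tested. Log2 differences between genotypes are therefore taken within each gene before they are summarised over a set. Ratios of different genes are set side by side only as values of the tracks, and a high ratio is not read as a transcribed gene.

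In *rtt109Δ* the meiosis and sporulation genes had lower RNAPII ratios than in WT. The median log2 of *rtt109Δ* over WT was -0.23 (interval -0.30 to -0.16) over the 56 genes, against -0.05 over all ORFs. Of the 56 genes, 10 fell by more than 1.3-fold (17.9%, against 9.53% of all ORFs) and 0 rose (against 8.74%). At any size, 49 of 56 were lower in *rtt109Δ* (87.5%, against 56.7%). No significance could be attached to these shares with 1 track per genotype. The count rests on the scaling: with each track divided by its mean window, 2 of the 56 genes stayed past the limit in *rtt109Δ* and 0 rose, against 4.03% and 13.8% of all ORFs.

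Of the 5 regulators, only IME1 passed the limit. IME1 (YJR094C, chromosome X, 604569 to 605651 in the sacCer3 build, minus strand), the activator at the head of the cascade, had a ratio of 1.06 in *rtt109Δ*, 1.49 in *rrp6Δ* and 1.6005 in WT. It fell by 0.59 on the log2 scale in *rtt109Δ*, the largest fall in the set, and was at -0.10 in *rrp6Δ*. IME2, the protein kinase that Ime1 turns on, had 0.943 in *rtt109Δ*, 1.31 in *rrp6Δ* and 1.17 in WT, with log2 ratios of -0.31 and 0.16, neither past the limit. NDT80 had 1.01 in *rtt109Δ*, 1.13 in *rrp6Δ* and 1.13 in WT, and RIM4, an RNA-binding protein that holds back translation of meiotic messages, had 0.984 in *rtt109Δ*, 1.13 in *rrp6Δ* and 1.02 in WT. IME4 was the only one of the 5 regulators with a higher ratio in *rtt109Δ*, at a log2 ratio of 0.18, short of the limit. An antisense RNA is known to run across IME4, and these tracks carry no strand, so the polymerases of the gene and of the antisense RNA cannot be told apart.

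Among the 14 recombination genes, 3 fell in *rtt109Δ* (21.4%, against 9.53% of all ORFs). The 3 act in making the DNA breaks, as do REC102, REC104 and REC107, which did not pass the limit, at log2 ratios of 0.10, -0.32 and -0.06. SPO11 (YHL022C, chromosome VIII, 62961 to 64157), the enzyme that cuts the DNA, had 0.957 in *rtt109Δ*, 1.33 in *rrp6Δ* and 1.31 in WT, a log2 ratio of *rtt109Δ* to WT of -0.46. REC114 (YMR133W, chromosome XIII, 536207 to 537609) had 0.917 in *rtt109Δ*, 1.197 in *rrp6Δ* and 1.21 in WT, a log2 ratio of -0.40. MEI4 (YER044C-A, chromosome V, 238460 to 239774), the partner of Rec114, had 1.04 in *rtt109Δ*, 1.38 in *rrp6Δ* and 1.36 in WT, a log2 ratio of -0.38, just past the limit. In each of these 3 genes *rtt109Δ* stood apart, while the log2 ratios of *rrp6Δ* to WT were 0.02 for SPO11, -0.02 for REC114 and 0.02 for MEI4. The other 11 recombination genes, which include the strand-exchange protein gene DMC1, lay between -0.34 and 0.10, and the median of all 14 was -0.24.

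The 8 genes of the chromosome axis, synapsis and segregation were all lower in *rtt109Δ* (100%, against 56.7% of all ORFs). Their median log2 ratio was -0.30, with a range of -0.43 to -0.10. ZIP2 (YGL249W, chromosome VII, 33098 to 35212), which starts the pairing of homologous chromosomes along their length, fell to 1.07 in *rtt109Δ*, against 1.45 in WT, with 1.32 in *rrp6Δ*. It was the only one of the 8 past the limit, at -0.43, and REC8, the meiotic cohesin subunit, was the gene nearest to the limit without passing it, at -0.38 (1.26 in *rtt109Δ*, 1.64 in WT). The 3 genes of the meiotic divisions were lower as well, with MAM1 (YER106W, chromosome V, 372326 to 373234) past the limit at -0.46 (1.23 in *rtt109Δ*, 1.82 in *rrp6Δ*, 1.69 in WT).

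Of the 13 genes for the prospore membrane, the meiotic septins and the sporulation kinases, 3 fell in *rtt109Δ* (23.1%, against 9.53% of all ORFs), with a median log2 ratio of -0.20 over the 13. SPO21 (YOL091W, chromosome XV, 145334 to 147163) had 1.15 in *rtt109Δ*, 1.77 in *rrp6Δ* and 1.73 in WT, a log2 ratio of -0.59. The septin gene SPR28 (YDR218C, chromosome IV, 903781 to 905052) had 1.11 in *rtt109Δ*, 1.59 in *rrp6Δ* and 1.496 in WT, a log2 ratio of -0.44. SSP2 (YOR242C, chromosome XV, 788742 to 789857) fell by 0.38 on the log2 scale and still had the second highest ratio of the set in *rtt109Δ*. Of the 13 genes of the spore wall and other spore functions, 1 fell (7.69%, near the 9.53% of all ORFs). It was SPS2 (YDR522C, chromosome IV, 1483795 to 1485303), which encodes a spore wall protein, with 1.05 in *rtt109Δ* and 1.41 in both *rrp6Δ* and WT, a log2 ratio of -0.42. The spore wall group had a median of -0.22, and its highest value was 0.08.

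**Figure D2:**
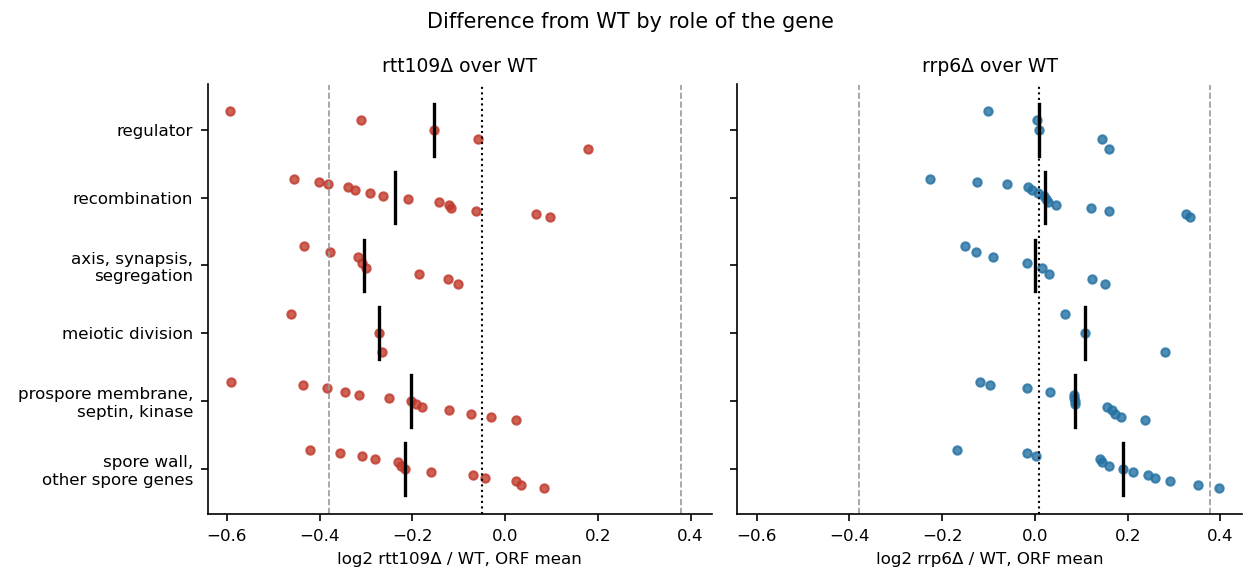
Log2 ratio of the ORF mean to WT for each gene, *rtt109Δ* over WT on the left and *rrp6Δ* over WT on the right, by role group; the black bar is the group's median, the dotted line the median of all ORFs and the dashed lines the 1.3-fold limits. In *rtt109Δ* 10 genes lie left of the lower limit and 0 right of the upper one, and in *rrp6Δ* 1 gene passes the upper limit.

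In *rtt109Δ* all ORFs of high ratio tended to be lower, so the genes were also set against ORFs of like level. The median log2 of *rtt109Δ* over WT was taken in 10 equal bins of ORFs by mean level over the 3 tracks. It ran from 0.23 in the lowest bin to -0.25 in the highest, and 25 of the 56 genes lay in the highest 2 bins. Relative to the median of their own bin, the 56 genes had a median of -0.08 (interval -0.15 to -0.03), and 40 of the 56 were below it. On that scale 0 of the 56 genes passed the limit in either direction, against 4.57% of all ORFs lower and 8.08% higher. The 10 genes that fell thus all came short of it, with values from -0.34 for IME1 and SPO21 to -0.13 for SSP2. All 10 lay in the highest 3 bins. The measure of level holds the *rtt109Δ* and WT values themselves, and which part of the lower ratios goes with the narrow range of the *rtt109Δ* track was not tested.

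**Figure D3:**
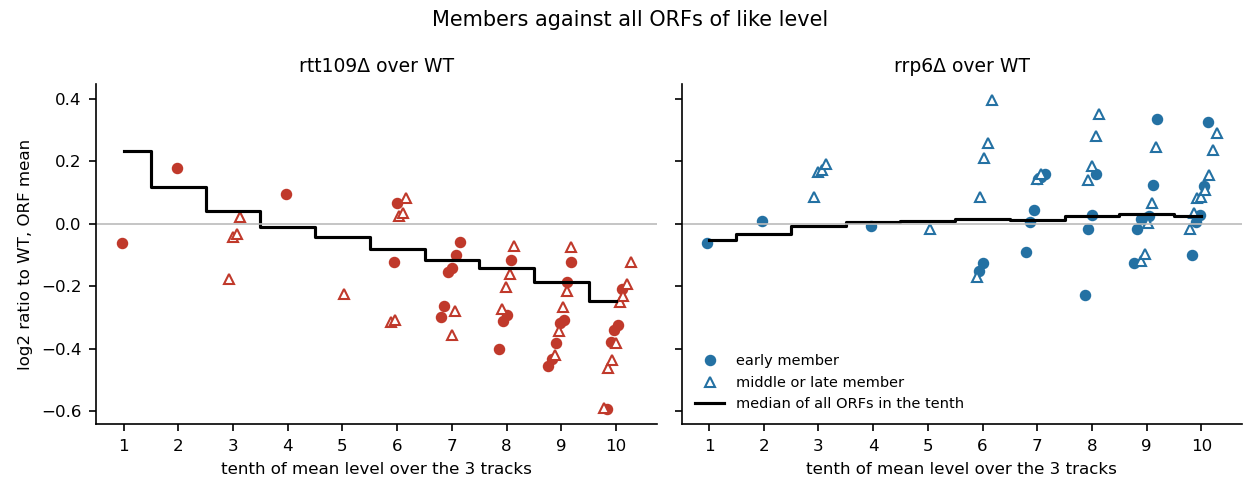
Log2 ratio to WT of each gene against the bin of mean level over the 3 tracks in which its ORF lies (10 equal bins), *rtt109Δ* on the left and *rrp6Δ* on the right, with early genes as filled circles, middle and late genes as open triangles and the median of all ORFs in each bin as a black step line. In *rtt109Δ* the step line runs from 0.23 to -0.25 and 40 of 56 genes lie below it, whereas in *rrp6Δ* 35 of 56 lie above it.

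In *rrp6Δ* the same genes differed little from WT. The median log2 of *rrp6Δ* over WT was 0.08 (interval 0.02 to 0.14), against 0.01 for all ORFs. Only SPS4 rose by more than 1.3-fold (1.79%, against 0.709% of all ORFs) and 0 fell (against 1.82%), and at any size 41 of 56 were higher in *rrp6Δ* (73.2%, against 52.6%). SPS4 (YOR313C, chromosome XV, 901858 to 902874), a sporulation gene, had 0.773 in *rtt109Δ*, 1.26 in *rrp6Δ* and 0.957 in WT, a log2 ratio of *rrp6Δ* to WT of 0.40. The next gene was GAS2, an enzyme that lengthens the glucan of the spore wall, at 0.35 and short of the limit (1.34 in *rrp6Δ*, 1.05 in WT).

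The middle and late genes had higher *rrp6Δ* ratios than the early genes. Their median log2 of *rrp6Δ* over WT was 0.15 (interval 0.08 to 0.19), against 0.02 (interval -0.02 to 0.12) for the early genes, a difference of -0.13 for early minus middle and late. In *rrp6Δ* 24 of 29 middle and late genes (82.8%) and 17 of 27 early genes (63%) had a higher ratio than in WT, against 52.6% of all ORFs. In turn, 23 of 29 and 12 of 27 lay above the median of their level bin, which by construction splits all ORFs evenly. The largest median of a role group was that of the spore wall genes, 0.19 over 13 genes, in which the chitin deacetylase genes CDA1 and CDA2 were at 0.16 and 0.29, the dityrosine gene DIT2 at 0.24 and its divergent neighbour DIT1 at -0.02. The other groups had medians of 0.11 for the 3 meiotic division genes, 0.09 for the prospore membrane group, 0.02 for recombination, 0.01 for the regulators and -0.000403 for the axis and synapsis genes. In *rtt109Δ* the classes had medians of -0.26 for early and -0.22 for middle and late genes, and their WT medians were 1.21 and 1.17. Without the 7 genes of uncertain timing the difference in *rrp6Δ* was again -0.13. None of these differences between classes has a replicate check, and the intervals of both classes overlap in each. Among 33 other genes of the pathway the order in *rrp6Δ* was the opposite, with a median of 0.17 over 8 early genes and 0.08 over 25 middle and late genes.

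The direct comparison of *rtt109Δ* with *rrp6Δ* does not use the WT track. Of the 56 genes, 24 were more than 1.3-fold lower in *rtt109Δ* than in *rrp6Δ* (42.9%, against 11.4% of all ORFs) and 0 were higher (against 11.3%), with a median log2 ratio of *rtt109Δ* to *rrp6Δ* of -0.33 (interval -0.41 to -0.25), against -0.06 for all ORFs. This count rests on the scaling too. In alternatives chosen after seeing the data, 11 of the 56 genes were lower with each track divided by its mean window (against 5.45% of all ORFs), 15 with division by the median ORF (against 7.01%) and 2 relative to the median of the level bin (against 4.93%). By class the 24 were 14 of 29 middle and late genes, among them the spore wall genes SPS2, SPS4, DIT2, CDA1, CDA2, SPR1 and GAS2, and 10 of 27 early genes, among them IME1 and IME2. The comparisons of each mutant with WT share the WT track, so a WT value that is off by chance moves both of them the same way.

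As in most ORFs, the ratio of these genes was higher upstream of the start codon than over the ORF. In the 500 bp before it the median ratio was 1.44 in *rtt109Δ*, 1.75 in *rrp6Δ* and 1.80 in WT, against 1.303 in *rtt109Δ*, 1.303 in *rrp6Δ* and 1.36 in WT for all ORFs. The upstream ratio exceeded that of the ORF in 54 of 56 genes in *rtt109Δ* (96.4%, against 85.8% of all ORFs). It did so in 49 in *rrp6Δ* (87.5%, against 77.2%) and in 52 in WT (92.9%, against 82%). Among the 33 other genes of the pathway the shares were below those of all ORFs, at 72.7% in *rtt109Δ*, 63.6% in *rrp6Δ* and 66.7% in WT. The highest window of the gene and its 500 bp upstream lay upstream of the start codon in 37 of the 56 genes in WT (against 71.5% of all ORFs). In these windows the *rtt109Δ* ratio was lower than the WT ratio in 50 of 56 genes (against 78.2% of all ORFs) and the *rrp6Δ* ratio in 32 (against 60.8%), although windows picked for a high WT value tend to be lower in any other track. The highest was before SPS2, with 6.70 in *rtt109Δ*, 8.61 in *rrp6Δ* and 10.3 in WT in the window centred at -197 bp from its start codon.

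**Figure D4:**
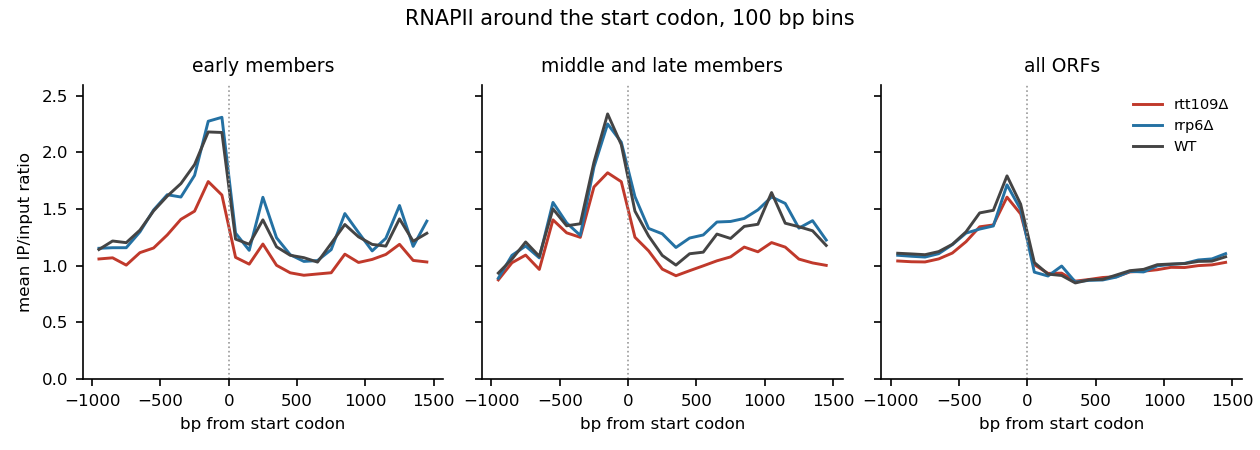
Mean IP/input ratio in 100 bp bins around the start codon (horizontal axis, bp) for the 27 early genes, the 29 middle and late genes and all ORFs, in *rtt109Δ* (red), *rrp6Δ* (blue) and WT (dark grey); bins past the stop codon are left out, so fewer genes remain towards the right (10 early and 9 middle and late genes in the last bin). In the bin from -200 to -100 bp the early genes averaged 1.74 in *rtt109Δ*, 2.28 in *rrp6Δ* and 2.18 in WT, and the middle and late genes 1.82, 2.25 and 2.34.

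Upstream regions of 15 genes fell in *rtt109Δ* by more than 1.3-fold (26.8%, against 15.9% of all ORFs) and 0 rose (against 6.63%), with a median log2 of *rtt109Δ* over WT of -0.21 (interval -0.27 to -0.11), against -0.06 for all ORFs. In *rrp6Δ* 0 fell (against 4.43%) and 0 rose (against 0.363%), with a median of -0.02 (interval -0.07 to 0.02). Upstream regions were not set against regions of like level, although their median WT ratio was above that of all ORFs. Which part of the upstream falls in *rtt109Δ* goes with level was not tested. The 4 largest falls in *rtt109Δ* over the 500 bp were before genes of recombination and synapsis. Not far behind were REC8 at -0.63, and the prospore membrane gene SPO21 and the regulator IME1, both at -0.59. The 500 bp before REC114 had a ratio of 1.62 in *rtt109Δ*, 3.55 in *rrp6Δ* and 3.58 in WT, a log2 ratio of *rtt109Δ* to WT of -1.15, and rests on 8 windows, none of them in another ORF. The region before MEI4 had 1.52 in *rtt109Δ*, 2.33 in *rrp6Δ* and 2.43 in WT, and that before HOP2, which helps Dmc1 find the homologous chromosome, had 1.57 in *rtt109Δ*, 2.37 in *rrp6Δ* and 2.48 in WT. ZIP2 had 1.16 in *rtt109Δ*, 1.66 in *rrp6Δ* and 1.81 in WT. In all 4 regions the *rtt109Δ* value was far below both of the others, with log2 ratios to WT of -0.68 for MEI4, -0.66 for HOP2 and -0.65 for ZIP2. The tracks carry no strand, and in 30 of the 56 genes the upstream neighbour is transcribed divergently. REC114 (with JLP2, 636 bp away) and HOP2 have such a neighbour, MEI4 and ZIP2 a tandem one. Upstream polymerases of a gene and of its divergent neighbour cannot be told apart.

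All 10 genes that fell over the ORF in *rtt109Δ* also fell upstream, and the 10 were 66.7% of the 15 that fell upstream. SPO11 lost its upstream call with 250 bp in place of 500 bp, and also with windows in another ORF left out, which leaves 9 of the 10 under either choice. Over all ORFs, 209 of the 551 ORFs that fell had an upstream region that fell too (37.9%). Here too, no ORFs of like level were set beside the 10 genes. The 5 genes that fell upstream only were HOP2, REC8, the telomere protein gene NDJ1, the septin gene SPR3 and the glucan enzyme gene GAS4. Windows at the start codon reach into both regions. The largest positive upstream log2 ratios of *rtt109Δ* to WT were 0.24 for SPO19, a surface protein gene of the prospore membrane, 0.22 for MSH5, which stabilises crossovers, 0.22 for SPO73 and 0.20 for GAS2. In *rrp6Δ* the largest were 0.34 for MSH5, 0.27 for GAS2, 0.22 for REC102 of the break machinery and 0.21 for the recombination kinase MEK1. The lowest in *rrp6Δ* were -0.33 for RIM4, -0.30 for SPR3, -0.25 for SPO11 and -0.19 for NDJ1. None of these 12 values passed the limit.

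In 27 of the 56 genes part of the upstream 500 bp belongs to another ORF, and in 6 more than 50% of it does. With windows centred in another ORF left out, 15 upstream regions fell in *rtt109Δ*, with a median of -0.19. The share of all ORFs under this choice was not counted. These 15 regions shared 14 genes with the first 15, SPO11 being lost and the meiotic division gene SPO1 gained. SPO21, of whose upstream region 59.4% lies in the tandem gene YPQ1, then had a log2 ratio of -1.13 in place of -0.59. SPS18 and SPS19 are transcribed away from each other across a shared gap of 300 bp, and DIT1 and DIT2 across one of 898 bp, so the upstream values within each pair are not independent.

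IME1 has an unusually long upstream region, 2653 bp to the ribosomal protein gene RPL43B, in which many signals of nutrition and mating type are known to act. In the first 500 bp before its start codon the ratio was 1.94 in *rtt109Δ*, 2.86 in *rrp6Δ* and 2.92 in WT. From 500 to 1000 bp it was 0.996 in *rtt109Δ*, 0.779 in *rrp6Δ* and 0.809 in WT, and from 1000 to 1500 bp it was 1.11 in *rtt109Δ*, 1.00 in *rrp6Δ* and 0.942 in WT. Farther out, from 1500 to 2000 bp, it was 1.41 in *rtt109Δ*, 1.83 in *rrp6Δ* and 1.75 in WT. Up to 2000 bp, the *rtt109Δ* ratio was thus the lowest of the 3 in both steps where WT was above 1, and the highest in both steps where WT was below 1. From 2000 to 2500 bp the ratio was 1.62 in *rtt109Δ*, 1.28 in *rrp6Δ* and 1.68 in WT, the only step in which *rrp6Δ* stood apart, at a log2 ratio to WT of -0.40. Each step is the mean of 10 windows.

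Along the ORF the lower *rtt109Δ* ratios were present from start to end. The median log2 of *rtt109Δ* over WT over 3 equal parts of the ORF was -0.18 at the start, -0.24 in the middle and -0.24 at the end, against 0.03, -0.02 and -0.12 for all ORFs. In 32 of the 56 genes *rtt109Δ* was lower in all 3 parts (57.1%, against 30.5% of all ORFs), and in 1, IME4, it was higher in all 3 (1.79%, against 24%). In *rrp6Δ* the medians were 0.10, 0.09 and 0.04, against -0.03, 0.01 and 0.04 for all ORFs. All 3 parts were higher in *rrp6Δ* in 24 genes (42.9%, against 19.4%), 17 of them middle and late genes, and lower in 6 (10.7%, against 16.5%). For the middle and late genes the *rrp6Δ* median was 0.19 for the first part, 0.13 for the middle one and 0.05 for the last.

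**Figure D5:**
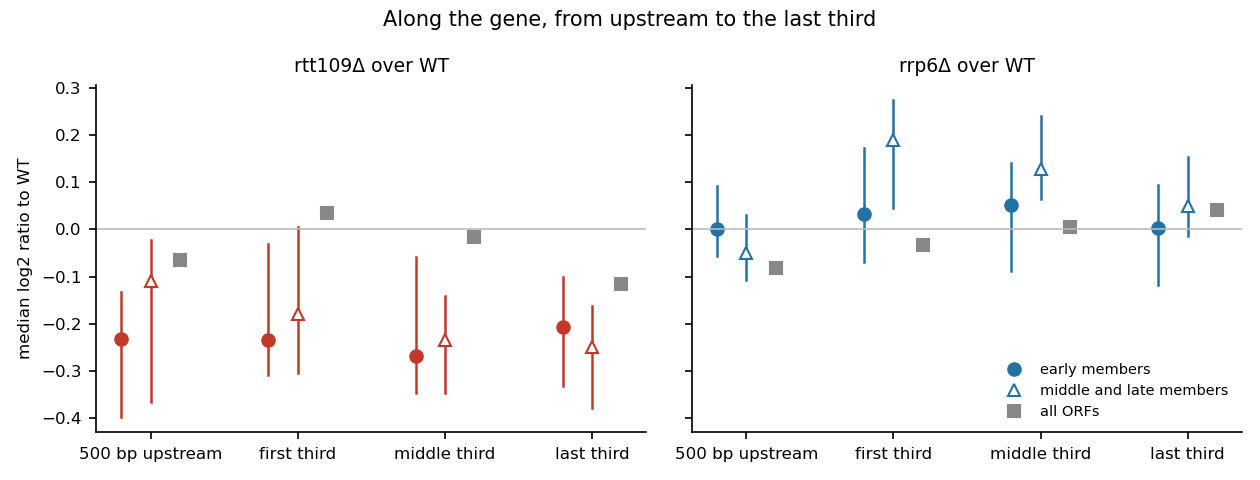
Median log2 ratio to WT in the 500 bp upstream of the start codon and over the ORF cut into 3 equal parts, *rtt109Δ* over WT on the left and *rrp6Δ* over WT on the right, for early genes (filled circles), middle and late genes (open triangles) and all ORFs (grey squares); vertical lines are 95% order-statistic intervals over genes. In *rtt109Δ* both classes lie below all ORFs in every region, and in *rrp6Δ* the middle and late genes stand highest in the first part, at 0.19.

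The difference between the ends of the gene was largest in 3 genes, which went in opposite directions. In REC114 the first part had 0.722 in *rtt109Δ*, 1.37 in *rrp6Δ* and 1.34 in WT, and the last part had 1.28 in *rtt109Δ* and 1.38 in both *rrp6Δ* and WT, so that the log2 of *rtt109Δ* over WT came to -0.89 at the start and -0.10 at the end. MEI4 likewise had -0.58 in the first part and 0.06 in the last. CDA1 had the opposite form, with 0.12 in the first part (1.09 in *rtt109Δ*, 1.01 in WT) and -0.68 in the last (0.794 in *rtt109Δ*, 1.27 in WT). In REC114 the low stretch joined the upstream region described above, which had the largest fall of the set.

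Other genes of the pathway also had lower ratios in *rtt109Δ*. Of 35 further meiosis and sporulation genes that are not in the set, 33 were measured (HOP1 and SGA1, on chromosome IX, were not analysed here), with a WT median of 1.27 and a median log2 of *rtt109Δ* over WT of -0.29 (interval -0.37 to -0.20). In *rtt109Δ* 10 of the 33 fell (30.3%, against 9.53% of all ORFs), from -0.39 for RRT8 to -0.51 for LOH1. The other 8 were PCH2, which acts in the recombination checkpoint, MPC54, a partner of Spo21 in the outer plaque, GIP1, a phosphatase subunit for septins and the spore wall, the spore wall genes OSW1, SPS22 and SHC1, and PES4 and PFS1. The short gene SPO24 rose, at 0.56 (3.03% of the 33, against 8.74% of all ORFs), and rests on 5 windows. The count of 10 that fell was not repeated with other scalings or relative to the level bin. Of the 33 genes, 24 lay below the *rtt109Δ* median of their level bin. In *rrp6Δ* 0 rose (against 0.709% of all ORFs) and 0 fell (against 1.82%).

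The repressors that hold these genes off in mitotic cells did not share a direction. Of 8 such genes, RFM1 (0.967 in *rtt109Δ*, 1.44 in *rrp6Δ*, 1.37 in WT) and UME1 (1.02 in *rtt109Δ*, 1.17 in *rrp6Δ*, 1.35 in WT) fell in *rtt109Δ*, at log2 ratios of -0.51 and -0.40. They were 25% of the 8, against 9.53% of all ORFs. SIN3, the scaffold of the Rpd3 deacetylase complex, rose to 1.33 in *rtt109Δ*, against 0.974 in WT, a log2 ratio of 0.45, with 1.03 in *rrp6Δ*. It was the only riser (12.5% of the 8, near the 8.74% of all ORFs). None of the 8 passed the limit in *rrp6Δ*.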

How the data were processed

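The authors deposited 1 track per genotype whose values are an IP over input ratio, given for 100 bp windows every 50 bp and already combined from 2 IP libraries and 1 input, on 15 chromosomes. The submitters' processing notes name FastQC, Bowtie2, SAMtools, deepTools, bedtools and the sacCer3 build. A browser view in the study was scaled by total reads per library. Whether the deposited tracks, whose median window is 1, were scaled so, and their read depth, are not given in the sources used here, so the precision of a window is unknown. The labels call the antibody 8WG16 and the methods text gives another clone name.

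ORFs came from the RefSeq R64 gene table, in which all 100 listed genes matched by symbol. Windows were assigned by their centre and averaged over each ORF, over the 500 bp before its start codon and over each of 3 equal parts of it. Genes were called at more than 1.3-fold, and no test was possible with 1 track per genotype. The 10 level bins were cut by the mean log2 ratio of the 3 tracks over all ORFs. The members and lists were chosen with earlier results of these data known. Named genes were the regulators, genes past the limit, the 4 highest and 4 lowest in WT, the 4 largest upstream differences each way in each mutant, and the 3 largest differences between the ends of the ORF. Genes outside this rule were named after their values were seen. Alternatives were other scalings, summaries, windows, filters, limits and upstream lengths. Columns of other samples numbered 0. Scripts in pandas 2.3.3, numpy 2.4.6, scipy 1.17.1, matplotlib 3.10.9 and Python 3.11.15 were tested on simulated data. Promoter sequences and motifs were not analysed here.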

Additional observations from a re-analysis of the deposited data

Results flagged for a closer look

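In 3 genes the mutants differed from WT in opposite directions by more than 1.2-fold each, and the difference between the mutants was not tested, since each genotype has 1 track and both comparisons share the WT track. The share of all ORFs that meets the same rule was not counted, so whether 3 is many or few is not known. SPS4 had a log2 ratio of -0.31 for *rtt109Δ* to WT and 0.40 for *rrp6Δ* to WT, a difference of -0.70. REC104, of the machinery that makes meiotic DNA breaks, had -0.32 for *rtt109Δ* and 0.33 for *rrp6Δ*, a difference of -0.65, with ratios of 1.14 in *rtt109Δ*, 1.79 in *rrp6Δ* and 1.43 in WT. AMA1, which activates the anaphase-promoting complex in meiosis, had -0.27 for *rtt109Δ* and 0.28 for *rrp6Δ*, a difference of -0.55, with ratios of 0.968 in *rtt109Δ*, 1.42 in *rrp6Δ* and 1.17 in WT. REC104 and AMA1 were chosen after their values were seen.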

How the results depend on the processing

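The direction of the median *rtt109Δ* over WT log2 value held under each alternative, but its size and the count of genes past the limit did not. The median of -0.23 was -0.13 with tracks divided by their mean window and -0.082 relative to the level bin. The count of 10 genes that fell in *rtt109Δ* was 2 with tracks divided by their mean window (against 4.03% of all ORFs). It was 6 with tracks divided by their median ORF (against 6.42%) and 6 with the median over windows (against 8.74%). With a pseudocount of 0.5 it was 2 (against 2.28%), and relative to the level bin 0 (against 4.57%). With a limit of 1.5-fold it was 2, for which the share of all ORFs is not given here. Mean-window scaling moved the median of all ORFs to 0.04. IME1 and SPO21 stayed past the limit under 8 of 9 alternatives and SSP2 under 2. Of the 9, 2 are filters that only drop other ORFs, so they could not change the value of these genes. The 2 under which SSP2 stayed are these filters. The WT median of 1.18 was 0.952 with division by the mean window, which rescales every ORF alike, and 1.07 with the median over windows. In *rrp6Δ* the count of 0 that fell was 1 with the median over windows, and the count of 1 that rose was 2 with the median over windows, 0 with the pseudocount and 0 with a limit of 1.5-fold. Upstream in *rrp6Δ*, 2 fell and 4 rose with 250 bp in place of 500 bp, and 1 fell and 1 rose with windows in no other ORF. For these *rrp6Δ* counts the share of all ORFs under the same alternative was not counted, so they are not read as results about the set. The cause of these changes was not tested. For *rtt109Δ* over *rrp6Δ*, in alternatives added after seeing the data, the median of -0.33 was -0.24 with the mean window, -0.23 with the pseudocount and -0.17 relative to the level bin. Its count of 24 lower was 11 with the mean window (against 5.45% of all ORFs) and 15 after division by the median ORF (against 7.01%). It was 14 when windows were summed up by their median (against 9.86%), 7 with the pseudocount (against 2.80%) and 2 relative to the level bin (against 4.93%). Its count of 0 higher was 1 with the median over windows (against 15.4%). The other 101 values stayed within the interval of the reported median or within 1.5 times the reported count. Some of the 101 could not change. Filters that only dropped other ORFs left the medians of the set and its 1.3-fold counts as they were. Dividing a track by a constant left the class differences in log2 ratios as they were. Several of the rest moved within these bounds. The early minus middle and late difference in *rtt109Δ*, -0.04, was 0.0035 with the median over windows, so it has no stable sign, and -0.07 with windows wholly inside the ORF. That in the WT level, 0.0375, was 0.0724 with the median over windows. The upstream *rtt109Δ* median of -0.21 was -0.12 with the mean window, and the *rrp6Δ* median in the last part of the ORF, 0.04, was 0.09 for ORFs of at least 900 bp. No paired analysis was possible because the libraries of a genotype are combined in 1 track, so no replicate could be left out either. The alternative motif was not run. Depth is unknown, so values of few windows are the least certain.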

Other observations

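The lists differ in how far *rtt109Δ* departs from WT. The ribosomal protein genes had a median ratio of 1.04 in *rtt109Δ*, 0.769 in *rrp6Δ* and 0.829 in WT. Of the 127, 65 were more than 1.3-fold higher in *rtt109Δ* (51.2%, against 8.74% of all ORFs). All 21 genes of glycolysis and translation elongation were higher in *rtt109Δ* by more than 1.3-fold (100%, against 8.74% of all ORFs). Their medians were 0.996 in *rtt109Δ*, 0.513 in *rrp6Δ* and 0.600 in WT. The medians of the meiosis and sporulation genes were 1.05 in *rtt109Δ*, 1.27 in *rrp6Δ* and 1.18 in WT. The 3 medians in *rtt109Δ* thus lay between 0.996 and 1.05, whereas in WT they lay between 0.600 and 1.18. Both comparison lists were picked with their values known.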
